A study of Mus musculus with 15 samples.

Results

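Transcripts of 41 lysosomal genes were followed in 5 cell populations sorted from the brains of hGFAP::GFP mice. The genes were chosen by symbol, as enzymes and membrane proteins of the lysosome together with the transcription factor Tfeb. All 41 were present once among the 32735 named genes of the count table, and all 41 were among the 16302 genes abundant enough to test. They comprise 7 cysteine proteases (Ctsb, Ctsc, Ctsf, Ctsh, Ctsl, Ctss and Ctsz), 3 other proteases (Ctsa, Ctsd and Tpp1) and 10 glycosidases (Hexa, Gaa, Galc, Glb1, Gusb, Man2b1, Manba, Naglu, Neu1 and Idua). The others are 4 sulfatases (Sgsh, Ids, Arsa and Arsb), 5 lipid hydrolases (Ppt1, Smpd1, Lipa, Asah1 and Naaa), 3 activators or secreted cofactors (Psap, Gm2a and Grn), 8 membrane proteins (Lamp1, Lamp2, Scarb2, Cln3, Laptm4a, Laptm4b, Mcoln1 and Cd63) and Tfeb.

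In hGFAP::GFP mice the human GFAP promoter drives GFP in astrocytes and in neural stem cells, and every population was GFP-positive. GCEPB+, GCEPB-, GCPB+ and GPB+ cells came from the ventricular-subventricular zone (V-SVZ), the neurogenic niche that lines the lateral ventricles, and all of these lacked surface CD24. GCEPB+ cells were positive for PDGFRβ, CD133 and EGFR, and GCEPB- cells were positive for CD133 and EGFR but negative for PDGFRβ. GCPB+ cells were positive for PDGFRβ and CD133 and negative for EGFR, and GPB+ cells were positive for PDGFRβ alone of these 3 proteins. CTX cells were cortical astrocytes. EGFR is used as a marker of activated stem cells and transit-amplifying progenitors, and CD133 as a marker of cells that touch the ventricle. Each population had 3 libraries made from pooled male and female animals. The age is not given in the sources used here, and neither is whether the replicates were separate animals, so the spread between replicates may be technical.

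The lysosome is the acidic compartment in which proteins, glycans, lipids and nucleic acids are broken down. Its hydrolases are made in the endoplasmic reticulum and carried to the lysosome mostly by mannose 6-phosphate receptors, its membrane is lined by heavily glycosylated proteins such as Lamp1 and Lamp2, and its acidity is kept by the vacuolar proton pump (V-ATPase). Tfeb and its relatives bind CACGTG-type motifs in the promoters of many lysosomal genes and switch them on together when the kinase complex mTORC1 is inactive. In the V-SVZ, quiescent stem cells are known to carry abundant lysosomes, which have been linked to the clearance of protein aggregates and of activating receptors.

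Because Tfeb is itself a member, the promoters of the members were searched for its core motif, CACGTG, and for the longer TCACGTGA. Both read the same on either strand, and every TCACGTGA contains a CACGTG. Of the 41 members, 37 matched the RefSeq promoter table (GRCm38.p6, the mm10 assembly), and Asah1, Ctsb, Ctsh and Laptm4b did not. CACGTG stood within the 250 bases before a transcription start in 12 of 37 members (32.4%, exact 95% interval 18.0% to 49.8%) and in 6.86% of the 27025 genes in the table. TCACGTGA stood there in 4 of 37 members (10.8%), namely Cln3, Ctsa, Ctsd and Mcoln1, and in 0.907% of all genes. These are matches of letters, not measured binding. Such motifs are known from promoters of many lysosomal genes, so a higher share in this chosen list is no independent finding. The members were not drawn at random, and the interval covers counting error only. The sequences printed here are 150 upstream bases of 6 of the 12 members, chosen to span a membrane protein, a channel, proteases and glycosidases that the later comparisons name. They end at the RefSeq start, except that of Ctsd, which ends 43 bases before it, and that of Ctsf, which ends 36 bases before it, where the authors' table places the start farther upstream. They run 5′ to 3′ on the strand of the gene, with CACGTG in capitals.
Lamp1 (chr8:13159011-13159160, plus strand): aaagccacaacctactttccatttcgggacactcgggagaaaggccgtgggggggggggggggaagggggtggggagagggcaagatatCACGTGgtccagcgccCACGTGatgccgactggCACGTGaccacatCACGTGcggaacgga
Mcoln1 (chr8:3500369-3500518, plus strand): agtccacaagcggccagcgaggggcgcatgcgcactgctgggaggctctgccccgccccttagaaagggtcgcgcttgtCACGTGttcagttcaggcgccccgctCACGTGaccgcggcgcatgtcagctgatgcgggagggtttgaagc
Ctsd (chr7:142387871-142388020, minus strand): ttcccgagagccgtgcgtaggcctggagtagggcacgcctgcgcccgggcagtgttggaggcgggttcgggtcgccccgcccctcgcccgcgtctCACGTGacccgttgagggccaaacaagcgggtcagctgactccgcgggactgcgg
Gaa (chr11:119267813-119267962, plus strand): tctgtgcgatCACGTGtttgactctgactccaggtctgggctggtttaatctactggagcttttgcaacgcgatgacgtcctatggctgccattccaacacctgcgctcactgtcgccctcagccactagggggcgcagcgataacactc
Ctsf (chr19:4854979-4855128, plus strand): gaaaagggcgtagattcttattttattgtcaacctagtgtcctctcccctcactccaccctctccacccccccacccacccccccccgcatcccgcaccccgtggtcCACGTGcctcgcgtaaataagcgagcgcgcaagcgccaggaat
Glb1 (chr9:114400928-114401077, plus strand): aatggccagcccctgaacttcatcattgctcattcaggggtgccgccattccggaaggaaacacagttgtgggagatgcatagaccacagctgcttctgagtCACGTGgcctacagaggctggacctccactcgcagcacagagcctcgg
Lamp1 held 4 copies within 61 bases of its start, Mcoln1 held 2, and the other 4 promoters held 1 copy each in the printed stretch. The copy in Ctsd and the second copy in Mcoln1 stood within a TCACGTGA.

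Across all libraries the depth was 12466038 to 33665687 counts, at which 3 counts correspond to 0.102 to 0.246 CPM, counts scaled to the normalized size of the library. The 41 members together took 0.657 ± 0.067% of the counts in GCEPB+ (SD, n = 3), 0.368 ± 0.029% in GCEPB-, 1.27 ± 0.16% in GCPB+, 1.22 ± 0.12% in GPB+ and 1.23 ± 0.07% in CTX. The range was 0.587% to 0.720% in GCEPB+ libraries, 0.335% to 0.389% in GCEPB- libraries and 1.09% to 1.41% in GCPB+ libraries, with no overlap between these 3 groups. The 12 astrocyte markers, all detected in every group, summed to 9721 to 16033 CPM in GCEPB+, 3877 to 4270 CPM in GCEPB-, 47981 to 54469 CPM in GCPB+, 43459 to 48603 CPM in GPB+ and 42449 to 48740 CPM in CTX. The 8 markers of activated stem and transit-amplifying cells ran the other way, at 4388 to 5055 CPM in GCEPB+, 7831 to 8986 CPM in GCEPB- and 284 to 347 CPM in GCPB+. In such bulk libraries fewer cells of a type and less RNA per cell cannot be told apart, and the part of either in the lysosomal differences was not tested.

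Levels of different genes were set side by side only on the FPKM scale, which divides by transcript length. The tetraspanin Cd63, a protein of late endosomes and lysosomes, was the highest member in every group, at 739 ± 208 FPKM in GCEPB+, 399 ± 13.1 FPKM in GCEPB-, 876 ± 35.2 FPKM in GCPB+, 717 ± 109 FPKM in GPB+ and 886 ± 62.9 FPKM in CTX (SD, n = 3 each). Psap, the precursor of the saposins that present sphingolipids to their hydrolases, measured 215 ± 63.9 FPKM in GCEPB+, 93.7 ± 23.1 FPKM in GCEPB-, 578 ± 230 FPKM in GCPB+, 507 ± 164 FPKM in GPB+ and 446 ± 88.6 FPKM in CTX. Ctsd, the main aspartic protease of the lysosome, and Laptm4a, a small multispanning membrane protein, completed the top 4 in all groups, at 465 ± 20.6 and 391 ± 116 FPKM in GCPB+. At the other end, Ids, which removes sulfate from iduronate in heparan and dermatan sulfate, averaged 0.983 to 2.34 FPKM over the 5 groups. Ctsh averaged 0.115 to 0.808 FPKM over the groups, and Ctss 0.106 to 3.60 FPKM. The same 4 genes thus led the members in all populations, while their levels differed. RefSeq also names a pseudogene of Cd63, with which its reads could be shared. Moreover, 18 of the 41 members overlap another RefSeq gene, among them Glb1 with Tmppe over 10107 bases and Idua with Slc26a1 over 8503 bases. Since the kit does not mark strand, values of these genes are uncertain to that extent.

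**Figure D1:**
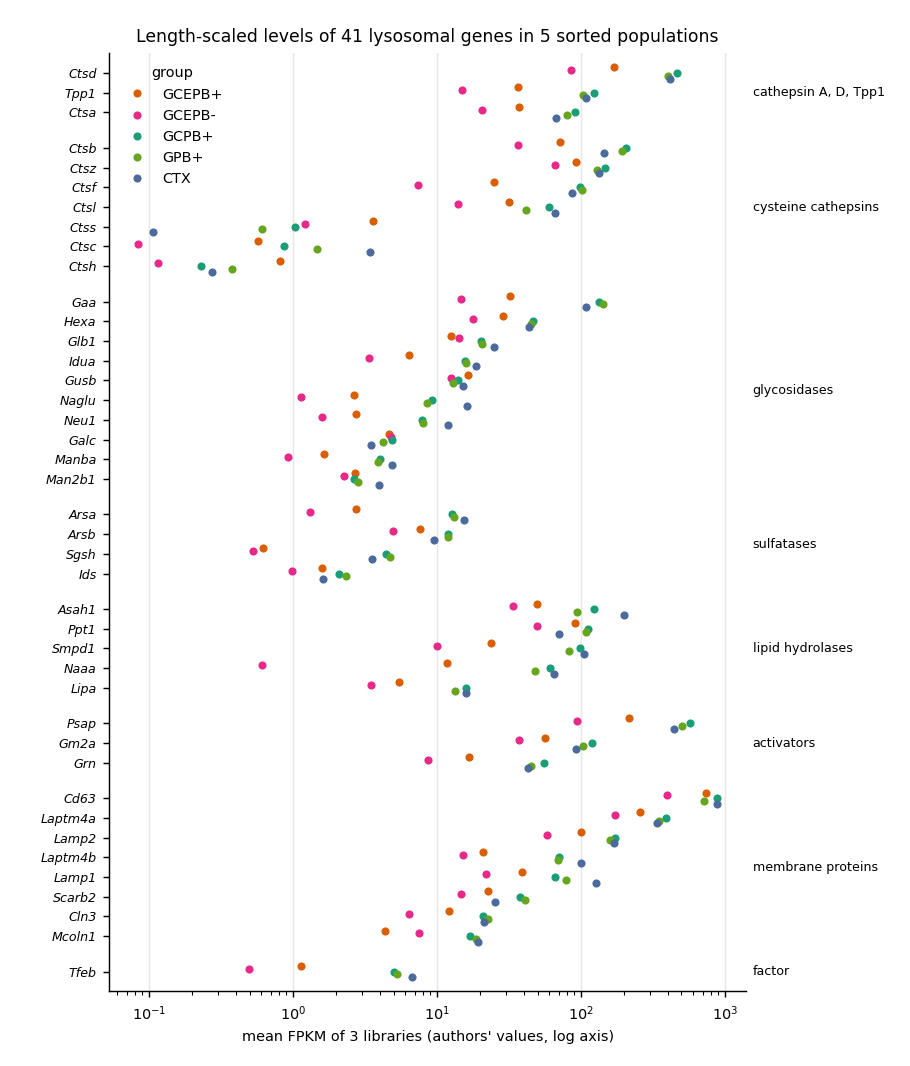
Mean FPKM of each of the 41 lysosomal genes (rows, grouped by role) in the 5 sorted populations (colours, mean of 3 libraries, log axis). Cd63 is highest in every group, at 399 to 886 FPKM, and Ctsh, Ctsc and Ctss lie at the low end, Ctsh at 0.115 to 0.808 FPKM.

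GCEPB+ and GCPB+ cells share PDGFRβ and CD133 and differ in EGFR, so their comparison asks what goes with EGFR among PDGFRβ-positive V-SVZ cells. Of the 41 lysosomal genes, 34 fell in GCEPB+ and none rose, at an edgeR adjusted p under 0.05, beside 18.0% of all tested genes called lower and 18.1% called higher. None had an unadjusted p under 0.05 in the upward direction, and DESeq2 called 35 lower and 0 higher. The median log2 fold change was -1.59 over the members and 0.11 over all tested genes. The falls covered 3 of 3 proteases outside the cysteine family, 4 of 7 cysteine proteases, 7 of 10 glycosidases, 3 of 4 sulfatases, 5 of 5 lipid hydrolases, 3 of 3 activators, 8 of 8 membrane proteins and Tfeb. On the authors' FPKM values, tested with limma, 4572 genes were called higher and 2314 lower, against 2956 and 2933 on the counts. There the median of all genes was 0.27, that of the members was -1.13, and 31 of 40 tested members were called lower.

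The 3 largest falls among members with a mean of at least 20 CPM in the higher group were those of Naaa, Arsa and Gaa. Naaa, which hydrolyses N-acylethanolamines such as palmitoylethanolamide (chromosome 5, 92257660 to 92278181), measured 25.0, 37.4 and 37.3 CPM in GCEPB+ against 184, 261 and 221 CPM in GCPB+. Its log2 fold change was -2.74 ± 0.32 (SE; edgeR adjusted p = 5.02e-06), a 6.68-fold lower level. Arsa, the arylsulfatase that degrades the myelin lipid sulfatide (chromosome 15, 89472476 to 89477424), measured 11.5, 10.7 and 11.2 CPM in GCEPB+ against 71.9, 59.3 and 73.3 CPM in GCPB+, a log2 fold change of -2.62 ± 0.25 (edgeR adjusted p = 8.23e-07). Gaa, the acid glucosidase that degrades glycogen (chromosome 11, 119267963 to 119285458), measured 92.0, 176 and 149 CPM in GCEPB+ against 736, 814 and 645 CPM in GCPB+, a log2 fold change of -2.40 ± 0.26 (edgeR adjusted p = 2.77e-06). For all 3 genes every GCEPB+ library lay below every GCPB+ library.

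Tfeb (chromosome 17, 47737037 to 47792416) measured 4.20, 2.04 and 0.776 CPM in GCEPB+ against 28.5, 12.5 and 7.87 CPM in GCPB+. The groups did not overlap, although the GCPB+ libraries differed among themselves, and the log2 fold change was -2.79 ± 0.52 (edgeR adjusted p = 0.00047). Mcoln1, the calcium channel of the lysosomal membrane that feeds the calcium signal activating Tfeb (chromosome 8, 3500519 to 3515232), measured 7.96, 12.9 and 8.38 CPM in GCEPB+ against 69.6, 44.9 and 28.2 CPM in GCPB+ (log2 fold change -2.29 ± 0.42, edgeR adjusted p = 0.000448). Sgsh, the sulfamidase of heparan sulfate breakdown, lay just below the abundance limit for the largest falls, with 1.33, 2.67 and 1.81 CPM in GCEPB+ against 17.7, 21.8 and 19.5 CPM in GCPB+ (log2 fold change -3.34 ± 0.52, edgeR adjusted p = 9.02e-05).

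Among enzymes of sphingolipid breakdown, the acid sphingomyelinase Smpd1 fell by 2.38 ± 0.18 on the log2 scale, Psap by 1.70 ± 0.33, the acid ceramidase Asah1 by 1.60 ± 0.17, and the sialidase Neu1 by 1.78 ± 0.33. The GM2 activator Gm2a fell by 1.36 ± 0.17, Glb1, the galactosidase behind senescence-associated staining, by 1.07 ± 0.22 and Hexa, the alpha subunit of hexosaminidase, by 0.99 ± 0.20. Galc, which hydrolyses the myelin lipid galactosylceramide, had a log2 fold change of -0.35 ± 0.23 that did not pass (edgeR adjusted p = 0.269). Its libraries overlapped, at 16.9, 21.5 and 19.6 CPM in GCEPB+ and 28.3, 20.4 and 25.1 CPM in GCPB+. In the breakdown of heparan sulfate, Naglu fell by 2.01 ± 0.53 and Idua by 1.59 ± 0.23 on the log2 scale, while Ids, at -0.71 ± 0.29, did not pass (edgeR adjusted p = 0.067), although it did with the same-numbered libraries paired (-0.70, edgeR adjusted p = 0.0426) and with DESeq2 (-0.75, adjusted p = 0.0249). Gusb, the glucuronidase, measured 34.9, 48.7 and 50.2 CPM in GCEPB+ and 45.0, 48.9 and 49.5 CPM in GCPB+, and Man2b1, the acid alpha-mannosidase, 13.0, 17.3 and 14.0 CPM in GCEPB+ and 11.4, 21.2 and 17.2 CPM in GCPB+. Neither passed (log2 fold changes -0.10 ± 0.23 and -0.17 ± 0.30), and the libraries of both overlapped between the groups.

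Among proteases, Ctsf fell by 2.30 ± 0.28 on the log2 scale, the tripeptidyl peptidase Tpp1 by 2.06 ± 0.19, Ctsb by 1.78 ± 0.17, Ctsd by 1.73 ± 0.17 and the carboxypeptidase Ctsa, which protects Glb1 and Neu1 in a shared complex, by 1.59 ± 0.18. Ctsl (1.30 ± 0.19) and Ctsz (0.95 ± 0.17) fell by less. Progranulin, Grn, whose fragments act inside the lysosome, measured 38.1, 51.0 and 54.0 CPM in GCEPB+ against 198, 195 and 205 CPM in GCPB+, a fall of 2.07 ± 0.21 on the log2 scale. Membrane proteins had a median log2 fold change of -1.04. Laptm4b had the largest fall after Mcoln1 (-2.08 ± 0.23), and Lamp1, Lamp2 and Scarb2, the receptor that carries glucocerebrosidase to lysosomes, each had a log2 fold change of -1.04, with SEs of 0.26, 0.24 and 0.19. The smallest falls that passed were those of Ppt1, a thioesterase that removes fatty acids from proteins (-0.58 ± 0.18, edgeR adjusted p = 0.0194), and Cd63 (-0.54 ± 0.17, edgeR adjusted p = 0.0187). The Ppt1 call was lost without GCPB+ replicate 2 (edgeR adjusted p = 0.115) or GCEPB+ replicate 1 (0.0699), and the Cd63 call without GCPB+ replicate 2 (0.0649), GCEPB+ replicate 2 (0.0782) or GCEPB+ replicate 3 (0.098). On FPKM with limma neither passed, and the log2 fold changes were smaller, -0.27 for Ppt1 (adjusted p = 0.195) and -0.28 for Cd63 (adjusted p = 0.205). Arsb, which removes sulfate from dermatan sulfate and fell on the counts (-0.95 ± 0.27), did not pass on FPKM either (-0.60, adjusted p = 0.0516). With no filter on FPKM, Lamp1 (limma adjusted p = 0.0792), Manba (0.0525) and Laptm4a (0.05002) also missed the threshold.

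**Figure D2:**
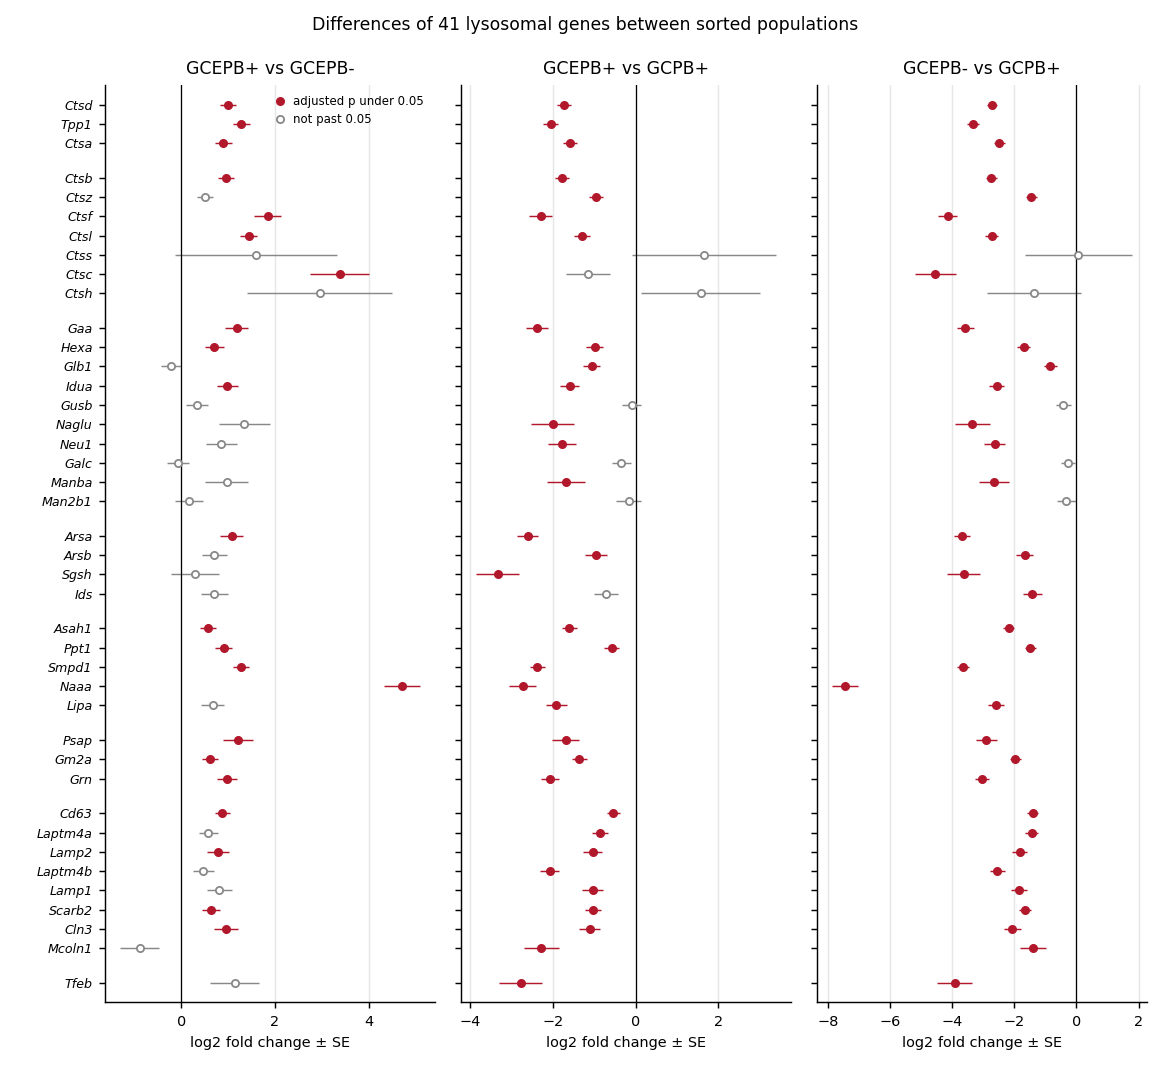
Log2 fold change ± SE (edgeR, 3 libraries a group) of each lysosomal gene in the 3 comparisons that involve EGFR-positive cells, with filled red points for an adjusted p under 0.05. Every called point lies right of 0 for GCEPB+ against GCEPB- (22 called) and left of 0 for GCEPB+ against GCPB+ (34 called) and GCEPB- against GCPB+ (36 called).

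GCEPB- cells, which carry EGFR and lack PDGFRβ, were further from GCPB+ cells. Of the 41 members, 36 fell in GCEPB- and none rose, beside 24.9% of tested genes called lower and 23.9% called higher. No member had an unadjusted p under 0.05 upward, and DESeq2 also called 36 lower and 0 higher. The median log2 fold change was -2.49 over the members and 0.06 over all tested genes. On FPKM with limma the calls over all genes were 5327 higher and 3325 lower, against 3901 and 4054 on the counts, and 36 members were called lower. This comparison shares its GCPB+ libraries with the preceding one, so the values of both stand side by side and are not independent.

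Naaa measured 0.486, 1.45 and 1.85 CPM in GCEPB- (11, 22 and 46 counts) against 184, 261 and 221 CPM in GCPB+. Its log2 fold change of -7.45 ± 0.41 (edgeR adjusted p = 4.85e-10) was the largest of any member. Ctsf, a cysteine protease (chromosome 19, 4855165 to 4860918), measured 10.6, 27.9 and 12.3 CPM in GCEPB- against 310, 284 and 299 CPM in GCPB+ (log2 fold change -4.15 ± 0.31, edgeR adjusted p = 1.2e-08). Arsa measured 6.41, 3.83 and 5.55 CPM in GCEPB- against 71.9, 59.3 and 73.3 CPM in GCPB+ (-3.69 ± 0.27, edgeR adjusted p = 8.39e-09). In none of these genes did the groups overlap. Tfeb measured 0.972, 1.25 and 1.01 CPM in GCEPB-, below each GCPB+ library (-3.92 ± 0.56, edgeR adjusted p = 1.73e-05). Ctsd, the most abundant protease by FPKM, measured 191, 207 and 213 CPM in GCEPB- against 1325, 1429 and 1266 CPM in GCPB+, a fall of 2.72 ± 0.17 on the log2 scale.

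Mcoln1 departed from the others in this comparison. It measured 12.2, 33.7 and 8.73 CPM in GCEPB- against 69.6, 44.9 and 28.2 CPM in GCPB+, and GCEPB- replicate 2 lay above the lowest GCPB+ library. Its fall of 1.39 ± 0.41 on the log2 scale (edgeR adjusted p = 0.00976) no longer passed without GCPB+ replicate 1 (0.0638) or GCEPB- replicate 1 (0.0509). Glb1 had the smallest fall that passed (0.84 ± 0.21). Gusb (-0.42 ± 0.23), Man2b1 (-0.33 ± 0.30) and Galc (-0.28 ± 0.23) did not pass, nor did the low Ctsh and Ctss. Of these 5, Gusb alone had libraries that did not overlap, at 34.0, 30.2 and 42.6 CPM in GCEPB- against 45.0, 48.9 and 49.5 CPM in GCPB+.

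Both populations with EGFR were compared directly to ask what goes with PDGFRβ among them. In GCEPB+ cells 22 of 41 members were higher than in GCEPB- cells and none was lower, beside 9.28% of tested genes called higher and 1.85% called lower. Mcoln1 alone had an unadjusted p under 0.05 downward, and DESeq2 called 23 higher and 0 lower. The median log2 fold change was 0.90 over the members and 0.03 over all tested genes. The calls comprised 3 of 3 proteases outside the cysteine family, 4 of 7 cysteine proteases, 3 of 10 glycosidases, 1 of 4 sulfatases, 4 of 5 lipid hydrolases, 3 of 3 activators and 4 of 8 membrane proteins. On FPKM with limma the calls over all genes were 1422 higher and 689 lower, against 1513 and 301 on the counts, and 22 members were called higher.

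Naaa measured 25.0, 37.4 and 37.3 CPM in GCEPB+ against 0.486, 1.45 and 1.85 CPM in GCEPB-, a log2 fold change of 4.71 ± 0.38 (edgeR adjusted p = 5.05e-07) or 26.2-fold. Ctsf measured 61.7, 60.9 and 58.3 CPM in GCEPB+ against 10.6, 27.9 and 12.3 CPM in GCEPB- (1.84 ± 0.28, edgeR adjusted p = 0.000281). Ctsl, an endopeptidase of broad specificity (chromosome 13, 64361890 to 64370772), measured 124, 105 and 155 CPM in GCEPB+ against 42.6, 52.9 and 46.2 CPM in GCEPB- (1.44 ± 0.19, edgeR adjusted p = 5.54e-05). The libraries of these 3 genes did not overlap between the groups. Ctsc, the dipeptidyl peptidase that activates granule proteases of immune cells, stayed under 20 CPM, with 4.24, 2.86 and 4.09 CPM in GCEPB+ against 0.0884, 0.198 and 0.725 CPM in GCEPB- (2, 3 and 18 counts). Its log2 fold change of 3.38 ± 0.64 therefore rests on few counts, and on log2(FPKM + 1) with limma it was 0.53 and did not pass (adjusted p = 0.188).

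The other calls were smaller, from 0.57 ± 0.17 for Asah1 to 1.28 ± 0.18 for Tpp1 and 1.28 ± 0.17 for Smpd1, and included Gaa (1.18 ± 0.25), Arsa (1.07 ± 0.25), Ctsd (0.99 ± 0.16), Grn (0.97 ± 0.21), Ctsb (0.96 ± 0.17), Ppt1 (0.91 ± 0.18), Ctsa (0.90 ± 0.17) and Cd63 (0.87 ± 0.17). Each of these named calls except that of Asah1 was kept whichever library was left out. Asah1 and Scarb2 (0.63 ± 0.19) each lost the call without any 1 library except GCEPB+ replicate 1, at edgeR adjusted p of 0.0505 to 0.149 and 0.0567 to 0.188. Lamp2 (0.79 ± 0.24) and Hexa (0.70 ± 0.20) did so without the same libraries, at 0.0722 to 0.149 and 0.0559 to 0.148. Psap (1.21 ± 0.32) lost the call without GCEPB+ replicate 2, GCEPB+ replicate 3 or GCEPB- replicate 1 (0.0676 to 0.112), and Gm2a (0.61 ± 0.17) without these or GCEPB- replicate 3 (0.0552 to 0.14). Cln3 (0.95 ± 0.26) lost it without GCEPB+ replicate 1 or 2 or GCEPB- replicate 2 or 3 (0.0557 to 0.137), and Idua (0.98 ± 0.23) without GCEPB- replicate 3 (0.0515). With the 2 groups fitted alone, the calls of Arsa (edgeR adjusted p = 0.0686), Asah1 (0.062), Cln3 (0.0719), Idua (0.0566) and Scarb2 (0.0747) were also lost. With no filter on low counts those of Asah1 (0.0636) and Scarb2 (0.0546) were lost. On FPKM with no filter those of Arsa (limma adjusted p = 0.0609), Cln3 (0.074) and Psap (0.0768) were lost. Between 15 and 21 members were called when 1 library was left out. The lowest count, 15, was reached without GCEPB+ replicate 2 and without GCEPB- replicate 3.

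Lamp1 (0.81 ± 0.26, edgeR adjusted p = 0.0568) lay at the threshold. It passed in 6 of 16 alternatives (adjusted p 0.0243 to 0.0461), among them DESeq2 (0.0333), and in none of the 6 that left out a library. Tfeb did not pass and measured 4.20, 2.04 and 0.776 CPM in GCEPB+ and 0.972, 1.25 and 1.01 CPM in GCEPB-. Mcoln1 had the lowest log2 fold change, -0.89 ± 0.41 (edgeR adjusted p = 0.202), with 7.96, 12.9 and 8.38 CPM in GCEPB+ and 12.2, 33.7 and 8.73 CPM in GCEPB-. Glb1 (-0.22 ± 0.21) and Galc (-0.07 ± 0.23) were the other members with a negative value. Mean CPM followed the order GCPB+ above GCEPB+ above GCEPB- in 36 of 41 members (87.8%) and in 30.6% of all tested genes, the exceptions being Ctsh, Ctss, Galc, Glb1 and Mcoln1. The groups are shared between these comparisons, so that order is a description.

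**Figure D3:**
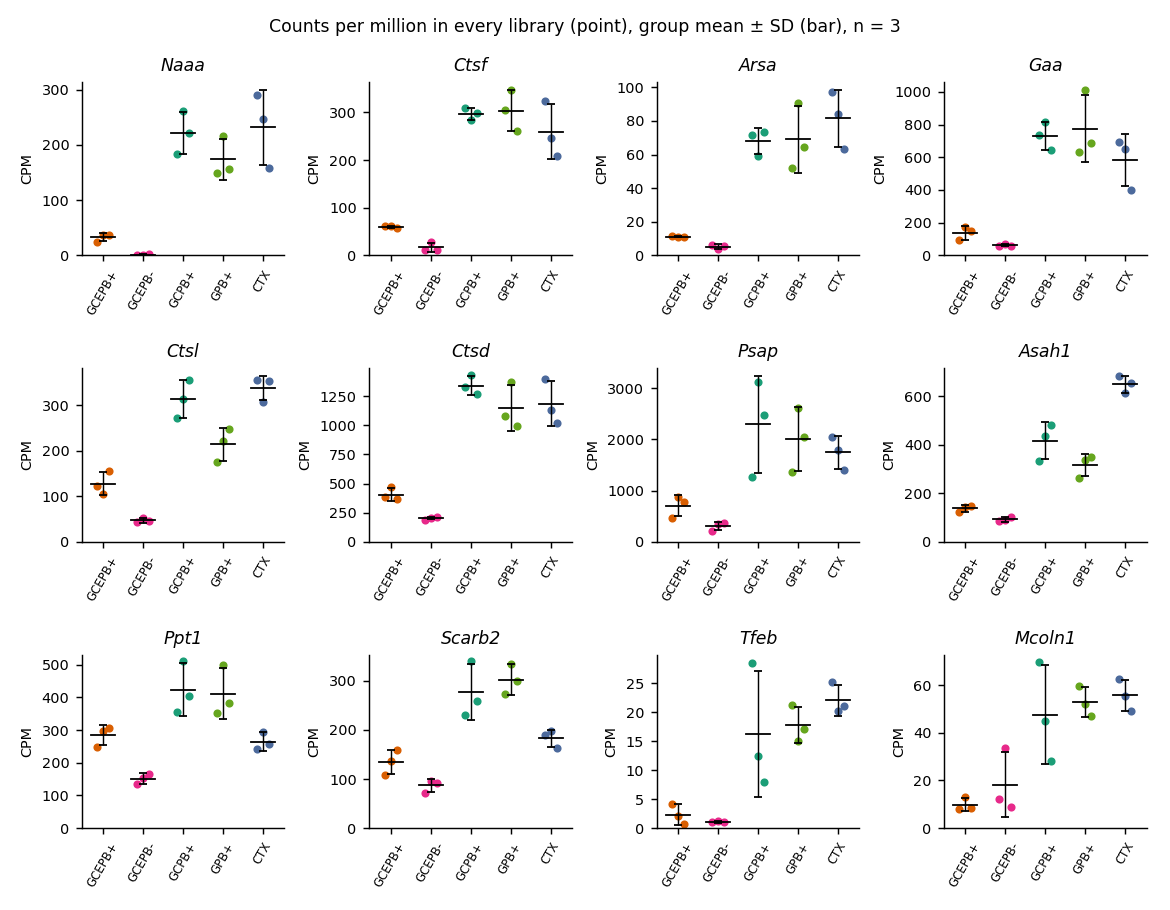
CPM of 12 members in each library (points), with the mean and SD of the 3 libraries of each group (black bars). GCEPB+ and GCEPB- libraries lie below those of GCPB+, GPB+ and CTX for Naaa, Ctsf, Arsa, Gaa and Ctsd, and Asah1 is highest in CTX.

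CD133 separated GCPB+ from GPB+ cells, and no member passed the edgeR test between them (0 higher and 0 lower of 41), where 0.0245% of tested genes were called higher and 0.00613% lower. DESeq2 and limma on FPKM also called 0 members, and limma called 1 gene higher and 0 lower in all, against 4 and 1 on the counts. At an unadjusted p under 0.05, 2 members were higher and none lower. These were Ctsl, with 271, 314 and 356 CPM in GCPB+ against 175, 221 and 247 CPM in GPB+ (log2 fold change 0.55 ± 0.18, edgeR adjusted p = 0.645), and Asah1, with 334, 434 and 483 CPM in GCPB+ against 263, 339 and 348 CPM in GPB+ (0.40 ± 0.17, edgeR adjusted p = 0.666). The libraries of Ctsl did not overlap between these groups, and those of Asah1 did. The median log2 fold change was 0.06 over the members and -0.00 over all tested genes, and the members ranged from -0.81 ± 0.52 (Ctsc) to 0.70 ± 1.74 (Ctss). A p that misses the threshold does not show equal levels. For the well-measured Ctsd the SE of the log2 difference was 0.16 around an estimate of 0.22, and for Tfeb it was 0.48 around -0.13.

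GPB+ cells were compared with CTX cells, which asks how GFP-positive cells of the niche differ from cortical astrocytes. Of the 41 members, 2 rose in GPB+ and 2 fell, beside 4.04% of tested genes called higher and 2.70% called lower, so the members were called about as often as other genes. DESeq2 also called 2 higher and 2 lower. On FPKM with limma the calls over all genes were 522 higher and 684 lower, against 658 and 440 on the counts, with 2 members in each direction. The median log2 fold change was -0.05 over the members and 0.00 over all tested genes. Asah1 measured 263, 339 and 348 CPM in GPB+ against 683, 614 and 655 CPM in CTX, a fall of 1.04 ± 0.17 on the log2 scale (edgeR adjusted p = 0.00124) that was kept whichever library was left out. Asah1 overlaps the neighbouring gene Frg1 over 8464 bases, and the kit does not mark strand. Ctsl measured 175, 221 and 247 CPM in GPB+ against 355, 308 and 353 CPM in CTX (-0.66 ± 0.18, edgeR adjusted p = 0.0392).

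Ppt1 measured 351, 500 and 383 CPM in GPB+ against 241, 296 and 258 CPM in CTX (0.63 ± 0.18, edgeR adjusted p = 0.0448), and Scarb2 measured 273, 335 and 300 CPM in GPB+ against 190, 197 and 164 CPM in CTX (0.72 ± 0.19, edgeR adjusted p = 0.03). The groups did not overlap for Asah1, Ctsl, Ppt1 or Scarb2. The Ctsl call was lost without any 1 of the 6 libraries (edgeR adjusted p 0.0522 to 0.148), with no filter on low counts (0.0517) and with the 2 groups alone (0.0532). The Ppt1 call was lost with no filter on low counts, with the 2 groups alone and with RLE or upper quartile factors (0.0523 to 0.0696). Without any 1 library except GPB+ replicate 1, the calls of Ppt1 (0.0669 to 0.198) and Scarb2 (0.0654 to 0.128) were lost as well. Tfeb measured 21.2, 15.1 and 17.1 CPM in GPB+ and 25.1, 20.1 and 21.0 CPM in CTX, and Mcoln1 59.7, 52.3 and 47.1 CPM in GPB+ and 62.5, 55.4 and 49.2 CPM in CTX. The libraries of both genes overlapped between these groups.

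**Figure D4:**
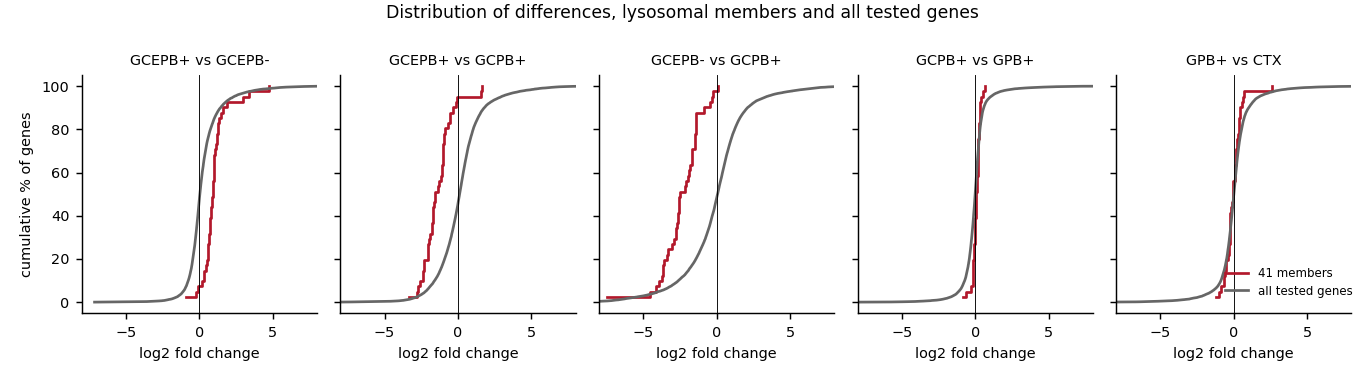
Cumulative share of genes (vertical axis, percent) by log2 fold change (horizontal axis) for the 41 members and for all 16302 tested genes in each of the 5 comparisons. The members' curve lies right of that of all genes in GCEPB+ against GCEPB- (medians 0.90 and 0.03), left of it in GCEPB+ against GCPB+ (-1.59 and 0.11) and GCEPB- against GCPB+ (-2.49 and 0.06), and close to it in the other comparisons.

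Ctss, Ctsh and Ctsc were the lowest of the cysteine proteases by mean FPKM in every group. Of these, Ctss and Ctsh departed from the order of means followed by most members, and Ctsc did not. Ctss, an elastolytic cathepsin that processes the invariant chain in antigen-presenting cells and microglia, measured 2.83, 0.825 and 11.4 CPM in GCEPB+, 4.95, 0 and 0 CPM in GCEPB-, 3.72, 0.656 and 0.339 CPM in GCPB+, 2.91, 0 and 0 CPM in GPB+ and 0.0715, 0 and 0.335 CPM in CTX. Its libraries overlapped in each comparison, and a single library held most of its counts in several groups. Ctsh, an aminopeptidase, measured at most 2.43 CPM in any library (GCEPB+ replicate 2), and was at 0 in GPB+ replicate 2 and CTX replicate 2. Several libraries held at most 3 counts of Ctss or Ctsh, so their fitted log2 fold changes are no measure of size. Ctsc measured 5.01, 8.28 and 11.7 CPM in GCPB+, 21.7, 8.35 and 13.7 CPM in GPB+ and 34.0, 16.6 and 53.1 CPM in CTX. Besides its higher level in GCEPB+ than in GCEPB-, it fell in GCEPB- against GCPB+ by 4.54 ± 0.65 on the log2 scale, while its log2 fold change of -1.16 ± 0.53 in GCEPB+ against GCPB+ did not pass.

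The 14 microglial markers summed to 11.5 to 57.7 CPM in GCEPB+, 0.594 to 18.0 CPM in GCEPB-, 14.0 to 24.0 CPM in GCPB+, 6.58 to 13.9 CPM in GPB+ and 22.7 to 29.3 CPM in CTX. The fractalkine receptor Cx3cr1 measured 0.969, 2.62 and 10.1 CPM in GCEPB+ and 3.62, 0.264 and 0.322 CPM in GCEPB-. It was at 0.147, 0.574 and 1.25 CPM in GCPB+, 0.200, 0.432 and 0.0884 CPM in GPB+ and 0.787, 0.154 and 0.168 CPM in CTX. Its highest library was also that of Ctss in GCEPB+ and GCEPB-, but not in GCPB+, GPB+ or CTX. In GCPB+, GPB+ and CTX most of the sum was P2ry12, at 10.2, 23.1 and 15.5 CPM in GCPB+, 11.7, 12.8 and 5.65 CPM in GPB+ and 25.4, 21.9 and 21.8 CPM in CTX. Of the 8 markers abundant enough to test, 2 were higher in GCEPB+ than in GCEPB- and 2 higher in GCEPB+ than in GCPB+. Of all tested genes, 9.28% and 18.1% were called higher in these comparisons. Aif1, Trem2 and Ptprc were at 0 in all GCEPB- libraries, and Trem2 and Ptprc in all GCPB+ libraries. In GPB+, 7 of 14 markers were at 0 in every library (Tmem119, C1qa, C1qb, C1qc, Tyrobp, Trem2 and Ptprc), and in CTX Tyrobp and Trem2 were. The part of microglial RNA in the Ctss and Ctsh values was not tested.

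**Figure D5:**
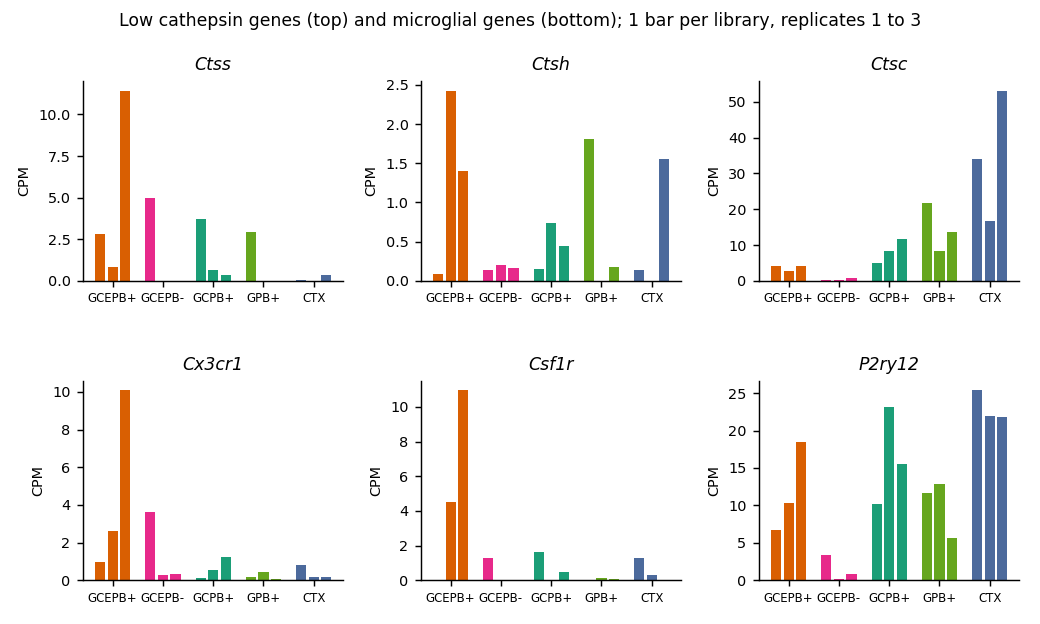
CPM of 3 low cysteine protease genes (top row) and 3 microglial markers (bottom row), with 1 bar for each library in the order of replicates 1 to 3. Ctss and Cx3cr1 are highest in GCEPB+ replicate 3 (11.4 and 10.1 CPM), while Ctsc is highest in CTX (16.6 to 53.1 CPM).

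Of 10 markers of mature oligodendrocytes, 6 were higher in GCEPB+ than in GCEPB- and 10 were lower in GCEPB- than in GCPB+. Of all tested genes, 9.28% and 24.9% were called in these directions, which are those of the lysosomal genes. In GCEPB+, 2 of the 10 markers were called lower than in GCPB+, about as often as all tested genes (18.0%). The sum of the 10 markers, all detected in each group, was 305 to 1146 CPM in GCEPB+, 129 to 180 CPM in GCEPB-, 1336 to 1863 CPM in GCPB+, 603 to 976 CPM in GPB+ and 238 to 757 CPM in CTX. Neuroblast markers (8 genes) summed to 282 to 488 CPM in GCEPB+, 856 to 1144 CPM in GCEPB-, 16.2 to 46.0 CPM in GCPB+, 27.6 to 46.7 CPM in GPB+ and 3.53 to 13.8 CPM in CTX, where Dlx2 and Dlx5 were at 0. Endothelial markers (10 genes) stayed at or under 42.8 CPM and mural markers (9 genes) at or under 80.8 CPM in every library. Ependymal markers (8 genes) stayed at or under 88.7 CPM, and mature neuron markers (6 genes) at or under 31.4 CPM. Oligodendrocyte progenitor markers (7 genes) summed to 361 to 464 CPM in GCEPB+, 180 to 248 CPM in GCEPB-, 728 to 942 CPM in GCPB+, 854 to 1087 CPM in GPB+ and 1153 to 1606 CPM in CTX. Most of that sum was Cspg5 in every group, at 412, 388 and 336 CPM in GCEPB+ and 878, 742 and 716 CPM in GCPB+. Olig2 ran the other way, at 24.9, 7.13 and 8.59 CPM in GCEPB+ and 3.17, 0.984 and 1.15 CPM in GCPB+. In GCEPB+ against GCPB+, 2 of the 7 genes were called higher and 1 lower. The part of these cell types in the lysosomal results was not tested.

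Members whose promoters held CACGTG were set beside those without it. In GCEPB+ against GCPB+, 12 of 12 members with the motif and 19 of 25 without it were called lower, and the median log2 fold changes were -1.87 and -1.04. In GCEPB- against GCPB+ these numbers were 12 of 12 and 21 of 25, with medians of -2.73 and -1.83. In GCEPB+ against GCEPB-, 7 of 12 members with the motif and 13 of 25 without it were called higher, with medians of 0.97 and 0.85. Of all tested genes, 18.0%, 24.9% and 9.28% were called in the directions of these comparisons, in that order. Between GCPB+ and GPB+ no member of either kind was called. Between GPB+ and CTX, 1 member with the motif was lower and 2 without it were higher. The low Ctss and Ctsc were among those without it. Whether the motif goes with the size of a change was not tested. Among the stretches printed above, Lamp1 with 4 copies had a log2 fold change of -1.04 in GCEPB+ against GCPB+, and Mcoln1 with 2 copies -2.29. Those with 1 copy were Gaa at -2.40, Ctsf at -2.30, Ctsd at -1.73 and Glb1 at -1.07. Of the 3 largest falls there among members of at least 20 CPM, Naaa was without the motif, and Arsa and Gaa held it. These counts describe the members alone. Spearman's rho between FPKM in GCPB+ and the log2 fold change of GCEPB+ against GCPB+ was -0.146 across the 41 members, which share libraries. The members were spread over the genome, with 3 neighbouring pairs closer than 200 kb (Gaa and Sgsh 58 kb apart, Naaa and Scarb2 163.1 kb, Smpd1 and Tpp1 186.4 kb).

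Other parts of the lysosomal system were examined with 7 further lists of 140 genes, of which 137 were tested. In GCEPB+ against GCPB+, 63 of the 137 were called lower and 4 higher, beside 18.0% and 18.1% of all tested genes. The median log2 fold change of the 137 was -0.62. The further hydrolases came nearest to the members, with 18 of 23 lower and none higher by edgeR, also at an unadjusted p under 0.05 (median -1.34). Among these were Man2b2, an alpha-mannosidase (14.5 ± 2.99 CPM in GCEPB+ and 104 ± 16.3 CPM in GCPB+, log2 fold change -2.84 ± 0.36), the phospholipase-like Plbd2 (-2.82 ± 0.41) and Hgsnat, the acetyltransferase of heparan sulfate breakdown (-2.62 ± 0.54). Of 24 further membrane proteins, 14 were lower and 1 higher (median -0.82). The peptide transporter Abcb9 fell by 2.25 ± 0.32 on the log2 scale and the cholesterol exporter Npc1 by 1.86 ± 0.28. The gene that rose was Cd68, a macrophage marker, at 3.24 ± 0.346 CPM in GCEPB+ and 0.777 ± 0.782 CPM in GCPB+. Its call (edgeR adjusted p = 0.0494) was lost without any library tested except GCPB+ replicate 1, at 0.075 to 0.15. In GCEPB-, Cd68 measured 6.36, 7.33 and 8.25 CPM, above every GCEPB+ library. The microglial markers summed to 18.0, 0.594 and 1.77 CPM in those GCEPB- libraries.

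The V-ATPase, whose 18 listed subunits and accessory proteins were all tested, had 9 members lower in GCEPB+ than in GCPB+ (median -0.52). Its membrane-sector subunits Atp6v0a1 (-1.85 ± 0.26), Atp6v0c (-1.25 ± 0.19) and Atp6v0b (-1.16 ± 0.20) and the accessory protein Atp6ap2 (-1.43 ± 0.22) had the largest falls. Of 24 sorting genes 8 were lower and 1 higher (median -0.25), with Sorl1, a sorting receptor, at 47.5 ± 15.1 CPM in GCEPB+ and 178 ± 21.4 CPM in GCPB+ (-1.91 ± 0.22). The median of 19 genes of the Tfeb family and of mTORC1 control at the lysosome, 0.05, was near that of all tested genes, 0.11. Of these 19 genes 3 were lower, about as often as among all tested genes (18.0%). These were Flcn, folliculin, which controls the release of Tfeb and Tfe3 from mTORC1 (-1.29 ± 0.19), Rraga (-0.81 ± 0.20) and Tfe3, a relative of Tfeb (-1.07 ± 0.30, edgeR adjusted p = 0.0106). The Tfe3 call was lost without GCPB+ replicate 1 (edgeR adjusted p = 0.0814) or GCEPB+ replicate 2 (0.0511). On FPKM with limma Tfe3 did not pass either (-0.52, adjusted p = 0.0998). Rraga missed the threshold on FPKM with no filter (limma adjusted p = 0.0658). Of 24 autophagy genes 9 were lower and 2 higher (median -0.62), led by Atg9a, the lipid scramblase of the growing autophagosome (-2.07 ± 0.21), and the cargo receptor Sqstm1 (-1.60 ± 0.26).

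Cst3, the secreted cathepsin inhibitor cystatin C, is short and abundant, with 6646 ± 479 CPM in GCEPB+ and 23320 ± 3525 CPM in GCPB+. It fell by 1.81 ± 0.16 on the log2 scale, and Serpina3n, an astrocytic serpin, by 2.60 ± 0.31. Between GCEPB+ and GCEPB-, 22 of the 137 genes were higher and 2 lower (median 0.25), beside 9.28% and 1.85% of all tested genes. Cst3 was 1.92 ± 0.16 higher on the log2 scale in GCEPB+, Sorl1 2.47 ± 0.23, the cathepsin Ctso 1.73 ± 0.31 and Tpcn1, an endolysosomal cation channel, 1.42 ± 0.22. The 2 lower genes were Gga2, an adaptor for mannose 6-phosphate receptors (-0.87 ± 0.27), and Atg16l1 (-0.68 ± 0.20). The Gga2 call was lost without any 1 of the 6 libraries (edgeR adjusted p 0.0691 to 0.161), and that of Atg16l1 without any except GCEPB- replicate 3 (0.0509 to 0.146). In GCEPB- against GCPB+, 73 of the 137 were lower and 8 higher (median -0.86), beside 24.9% and 23.9% of all tested genes. Gga2 was among the higher, at 28.7 ± 4.01 CPM in GCEPB- and 9.57 ± 1.60 CPM in GCPB+ (1.58 ± 0.27), and Sorl1 among the lower (-4.38 ± 0.25).

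Between GCPB+ and GPB+ none of the 137 passed edgeR's test (7 higher and 1 lower at an unadjusted p under 0.05). Of all tested genes, 0.0245% were called higher there and 0.00613% lower. Between GPB+ and CTX, 5 of the 137 were higher and 4 lower, beside 4.04% and 2.70% of all tested genes. They were thus called about as often as other genes. Cst3 measured 16926 ± 3358 CPM in GPB+ and 7379 ± 582 CPM in CTX (log2 fold change 1.20 ± 0.16, edgeR adjusted p = 0.000146). It was the only gene called there whose call was kept whichever library was left out. On FPKM with no filter that call was lost (limma adjusted p = 0.487). The Cst3 calls in GCEPB+ against GCEPB- (0.117) and against GCPB+ (0.127) were lost in the same way.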

How the data were processed

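RNA was sequenced from 15 libraries of sorted cells. Per the labels' protocols, DNase-treated RNA was amplified with an oligo(dT)-primed low-input kit that does not mark strand, and paired reads of 100 bases were taken. The deposited table of counts holds whole reads per gene, and the deposited FPKM table holds the authors' length-scaled values. The submitters' processing notes name cutadapt, TopHat2 2.1, Cufflinks, HTSeq and mm10 without their roles. In the header of the FPKM table the names of the symbol and position columns are exchanged, so each was read by its content.

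Of 32763 count rows, 28 had no gene name (0.184% to 0.323% of counts) and were left out. Genes passing edgeR's filterByExpr (minimum count 10) were fitted with edgeR 4.0.16 (quasi-likelihood, TMM factors, all 5 groups, R 4.3.3), with Benjamini-Hochberg adjustment over 16302 genes and a threshold of 0.05, two-sided. The standard error is the absolute log2 fold change divided by the square root of F. The fit was tested on simulated data. CPM values use normalized library sizes. FPKM served to compare levels between genes and, with limma, as an alternative test between groups. Markers of other cell types and related gene lists were described by counts. Intervals and floors cover counting error only. Replicates were not duplicates, since a chi-square per gene of 26.7 to 104 separated them.

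Alternatives were RLE and upper quartile factors, other filters, DESeq2 1.42.0, limma 3.58.1 on log2(FPKM + 1) after a minimum of 1 FPKM, each comparison alone, a replicate block and leaving out each library. Same-numbered libraries deviated together (every correlation over 0.1) for GCEPB+ and GCPB+ (0.271, 0.173 and 0.267) and for GCPB+ and GPB+ (0.22, 0.212 and 0.285). Their numbers were therefore taken as pairs for these groups, a link that comes from the data alone. The main fit had no replicate block, so its p-values leave this link out.

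Values in every library are given for the 3 members with the largest rise and the 3 with the largest fall per comparison, among those that passed, did not overlap between groups and averaged at least 20 CPM in the higher group. They are also given for Tfeb, Mcoln1 and members that departed from the rest. Other members named with library values were chosen after their values were seen. Of each related list, at most 4 genes that passed were allowed per comparison, by size of change, and some of these are not named. The members and all lists were chosen with earlier results of these data known.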

Additional observations from a re-analysis of the deposited data

How the results depend on the processing

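No called member changed direction under any alternative run. Of the values for members called in GCEPB+ against GCEPB-, 308 of 352 kept the call, and 10 of 22 members lost it at least once. For GCEPB+ against GCPB+ these numbers were 527 of 544 and 6 of 34, for GCEPB- against GCPB+ 574 of 576 and 1 of 36, and for GPB+ against CTX 42 of 64 and 3 of 4. The causes of these changes were not tested.

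On FPKM with limma, the median log2 fold change of the members was 0.69 in GCEPB+ against GCEPB- (0.67 with no filter). It was -1.13 in GCEPB+ against GCPB+ (-1.28 with a pseudocount of 0.1, -1.08 with no filter) and -1.68 in GCEPB- against GCPB+ (-2.05 and -1.67). A pseudocount makes fold changes of low genes smaller. With 1 library left out, these medians were -1.55 to -1.36 in GCEPB+ against GCPB+, lowest in size without GCEPB+ replicate 1, and -2.49 to -2.31 in GCEPB- against GCPB+. In GPB+ against CTX, RLE and upper quartile factors left 1 member higher, no filter on low counts left 2 called (1 higher and 1 lower), and the 2 groups alone left 2 (1 and 1). Leaving out 1 library there gave 1 to 3 members in all, 0 to 2 higher and 1 to 2 lower.

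Members that were not called changed sign in some settings. Gusb in GCEPB+ against GCPB+ was 0.21 on FPKM, 0.23 with a pseudocount of 0.1 and 0.21 with no filter, and -0.20 to 0.047 with 1 library left out. Man2b1 there was 0.028, 0.048 and 0.028, and -0.38 to 0.042. In GCEPB+ against GCEPB-, Galc ranged from -0.17 to 0.031 and Sgsh from -0.20 to 0.70 with 1 library left out. Ctss in GCEPB- against GCPB+ was -0.14, -1.26 and -0.14 on FPKM, -1.37 with the replicate block, and -8.0 to 1.77 with 1 library left out, its counts in GCEPB- lying in replicate 1 alone.

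With the replicate block 28 members were higher in GCEPB+ than in GCEPB-, 35 lower in GCEPB+ than in GCPB+, 36 lower in GCEPB- than in GCPB+, none different between GCPB+ and GPB+, and 2 higher and 3 lower in GPB+ than in CTX. Among the paired groups, the block added the call of Ids in GCEPB+ against GCPB+ (-0.70, edgeR adjusted p = 0.0426) and changed no other call of a member. Extending the promoter window past the transcription start, to 300 bases in all, left 12 and 4 of 37 members with CACGTG and TCACGTGA. Among all genes in that window the shares were 8.09% and 1.12%. At 3 counts the floor was 0.102 to 0.246 CPM, which limits Ctsh, Ctss and, in GCEPB-, Ctsc.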
